A study of Mus musculus with 12 samples.

Results

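The germ cell specification regulators described here are 6 genes, Prdm1, Prdm14, Tfap2c, Dppa3, Nanos3 and Dnd1, out of 21728 genes with a count in at least 1 of 12 mouse mRNA libraries. They were chosen by symbol and linked to the counts by Ensembl identifier, so no measured value entered the choice. The libraries came from embryonic stem cells turned first into epiblast-like cells (EpiLCs), a formative state that can answer germ cell inducing signals, and then into primordial germ cell-like cells (PGCLCs), a culture model of the earliest germ cells. Each stage had 3 untreated libraries and 3 labelled with 100 nM bisphenol A (BPA), which makes 4 groups. The comparisons ask how far the regulators separated the cell stages and whether BPA, a plasticiser with oestrogen-like activity, changed them at either stage.

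All groups shared the C57BL/6 strain and the reporters Blimp1-mVenus and Stella-ECFP (together called BVSC), which report Prdm1 (Blimp1) and Dppa3 (Stella). Stem cells grew in 2i with LIF, spent 48 h in EpiLC medium and then went into wells for aggregation as PGCLCs. In the EpiLC exposure, BPA was present for the last 24 h. The labels do not say if PGCLC medium contained it. The PGCLCs were taken on day 5 and sorted for both reporters. The PGCLC levels of Prdm1 and Dppa3 are thus levels in cells chosen by reporters of the same genes, and the part of the sort in their stage differences was not tested. Untreated EpiLCs are described as water controls. For untreated EpiLC replicate 3 the title and the description differ in number, and the title was used. Library names follow 1 scheme in EpiLCs, another in untreated PGCLCs and another in the BPA arm of the PGCLCs, so a difference between library batches cannot be told apart from stage, nor from BPA within PGCLCs. The labels do not say whether replicates came from separate cultures, so the tests measure library-to-library spread, which may be technical.

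Primordial germ cells arise when bone morphogenetic protein and Wnt signals reach competent epiblast cells and switch on a small set of transcription factors. Prdm1 (BLIMP1) is a PR-domain repressor of the somatic programme, Prdm14 is a PR-domain factor that restores pluripotency genes and restrains DNA methylation, and Tfap2c (AP-2 gamma) is a DNA-binding activator downstream of Prdm1; together they can drive the germ cell programme in EpiLCs. Dppa3 protects DNA methylation states and marks specified germ cells, while Nanos3 and Dnd1 encode RNA-binding proteins that keep early germ cells alive.

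Promoter sequence could be shown for 2 of the 6 genes, as the bases just before the RefSeq start on the GRCm38.p6 build. It is shown because both genes were higher in PGCLCs and because sites for the other regulators can be looked for in it. Sequences run 5' to 3' on the gene's strand and end at the base before the start. The Prdm1 window is chr10:44458749-44458998 and the Nanos3 window is chr8:84176553-84176802, both on the minus strand. Capitals mark matches to the motifs named in the next paragraph, and the Prdm1 window holds none.
Prdm1: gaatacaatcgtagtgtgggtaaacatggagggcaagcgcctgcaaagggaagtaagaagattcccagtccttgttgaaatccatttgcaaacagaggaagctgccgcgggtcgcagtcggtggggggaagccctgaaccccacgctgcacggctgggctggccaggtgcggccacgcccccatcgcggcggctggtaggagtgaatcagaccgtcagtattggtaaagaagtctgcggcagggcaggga
Nanos3: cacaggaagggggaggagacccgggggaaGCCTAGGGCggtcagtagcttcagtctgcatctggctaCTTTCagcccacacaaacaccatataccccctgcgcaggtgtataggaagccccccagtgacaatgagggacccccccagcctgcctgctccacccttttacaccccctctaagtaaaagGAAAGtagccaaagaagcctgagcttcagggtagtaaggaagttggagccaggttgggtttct

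The motifs searched on both strands were GCCNNNGGC for AP-2 factors, GAAAG for the core of BLIMP1 sites, GGTCTCTAA for PRDM14 and TCACACC for a half-site of T. In the Nanos3 window, the AP-2 letters matched once, with the match beginning at position -221 from the start. The GAAAG core matched at -183 and -63, and the matches of the 2 motifs do not overlap. Among 32536 distinct windows of 250 bases, 13.8% held the AP-2 motif and 51.6% the GAAAG core, 0.24% the PRDM14 motif and 3.33% the T half-site. The Prdm1 window was richer in CpG, with 15 CpG and 59.2% GC against 3 CpG and 56.4% GC for Nanos3, where the medians of all windows were 6 CpG and 52.4% GC. Both windows lie inside their gene's span in the GENCODE M21 annotation, with 0 bases in exons. Each start coincides with an annotated transcript start, 69753 bases from the outermost start of Prdm1 and 8665 bases from that of Nanos3. A match describes letters and was not tested for binding.

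In mm10 coordinates of GENCODE M21, Prdm1 (ENSMUSG00000038151) lies at chr10:44437177-44528501 on the minus strand. Prdm14 (ENSMUSG00000042414) lies at chr1:13113457-13127163 on the minus strand. Tfap2c (ENSMUSG00000028640) spans chr2:172549593-172558622 on the plus strand. Dppa3 (ENSMUSG00000046323) spans chr6:122626410-122630272 on the plus strand. Nanos3 (ENSMUSG00000056155) occupies chr8:84173731-84185217 on the minus strand and hosts the microRNA genes Mir181c and Mir181d outside its exons. Dnd1 (ENSMUSG00000044595) occupies chr18:36763671-36766214 on the minus strand. All 6 are protein-coding, and the counts cover their exons with the UTRs.

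Sequence shared with other genes limits 2 of the counts. Of the 50-base stretches of Dppa3 transcripts, 16.5% also occurred in another gene, mostly the pseudogene Dppa3-ps. Of the exon bases of Dnd1, 140 of 2412 overlap Wdr55 on the opposite strand, and how the counting used strand is not stated in the labels, although the kit marks it. The other 4 genes shared no such stretch.

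Depth was 11785338 to 22029195 assigned counts per EpiLC library and 30375633 to 34309195 per PGCLC library. The files list only genes with at least 10 counts, so an unlisted gene can have up to 9 counts, which was 0.255 to 0.740 CPM (counts scaled to a common library size) depending on the library. Untreated EpiLC replicate 3 stood apart, with 14.2% of its counts in ribosomal protein genes against 8.26% to 9.33% in the other 5 EpiLC libraries. In the BPA arm of the PGCLCs, replicate 3 differed from replicates 1 and 2 in its summed endoderm markers, given beside the BPA results. As a check of the stages, 7 of 7 naive pluripotency markers and 11 of 12 early germ cell genes other than the regulators were higher in untreated PGCLCs, and 5 of 7 EpiLC markers lower. Markers of other cell types were higher there too, 11 of 13 for endoderm and 5 of 7 for trophoblast. So were 4 of 6 tested for mesoderm and 5 of 6 for endothelium and blood. Each of these lists held genes unlisted in untreated EpiLCs. Of all 17607 genes tested, 5347 were higher and 4438 lower. One EpiLC marker went against its list: Otx2, a formative state factor known for restraining germ cell entry, was higher in PGCLCs by a log2 change of 2.75 ± 0.15 (SE, adjusted p = 3.29e-08).

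Every regulator was higher in PGCLCs than in EpiLCs, in untreated cells and in the BPA arm. The 6 genes differed greatly in how far: Prdm14 went from unlisted to 70.8 CPM on average, Tfap2c, Prdm1 and Dppa3 rose by more than 10-fold, and Dnd1 by about 2-fold. Of the 5 regulators listed in EpiLCs, 5 passed the test as higher in untreated cells, where 30.4% of the 17607 genes tested did, and 5 in the BPA arm, where 32.5% did. Prdm14 passed the filter on low counts only through the PGCLCs, so it is left out of this count and given as a bound. With Prdm14 at its bound, the median log2 change of the 6 genes was 3.98 in untreated cells against 0.07 over all genes, and 3.75 against 0.13 in the BPA arm. Both medians lie between the values of Prdm1 and Dppa3, whose reporters were used to sort the PGCLCs. These genes are also among the 5 that passed, and the part of the sort in these results was not tested. In bulk RNA, a lower level can come from fewer cells that express a gene or from less RNA per cell, and these cannot be told apart. The groups compared between the stages in the 2 arms share no library. Both comparisons come from the same fit of all libraries, with a shared estimate of the spread, so their tests are not independent.

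Prdm1 was listed in every library. In untreated EpiLCs it stood at 10.3, 11.2 and 9.95 CPM in replicates 1 to 3, and in untreated PGCLCs at 181, 190 and 204 CPM. The lowest PGCLC library was thus far above the highest EpiLC library. The fitted log2 change was 4.18 ± 0.11 (SE, adjusted p = 2.90e-10), an 18.2-fold higher level. The same contrast in the BPA arm gave 3.75 ± 0.11 (SE), or 13.4-fold.

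Prdm14 was unlisted in all 6 EpiLC libraries. Untreated PGCLCs had 65.9, 71.9 and 74.6 CPM, and PGCLCs of the BPA arm 42.1, 45.0 and 49.0 CPM. Taking 9 counts as the ceiling in each EpiLC library, the level was at least 147-fold higher in untreated PGCLCs and at least 82.4-fold higher in the BPA arm. Prdm14 was the only regulator for which EpiLCs gave a ceiling and no level in every library.

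Tfap2c had low EpiLC levels with little spread. Its untreated EpiLC values were 5.20, 5.12 and 5.22 CPM, against 219, 253 and 257 CPM in untreated PGCLCs. The log2 change of 5.55 ± 0.11 (SE, adjusted p = 7.67e-11) was a 46.9-fold higher level. The BPA arm gave a log2 change of 4.98 ± 0.11 (SE), or 31.5-fold, and no EpiLC library approached a PGCLC library in either arm.

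Dppa3, the second reporter gene of the sort, was measured in EpiLCs too. There it had 14.97, 15.1 and 21.4 CPM in untreated cells, with the highest value in the replicate 3 that stood apart. Untreated PGCLCs had 208, 238 and 256 CPM, so the groups did not overlap. The log2 change was 3.78 ± 0.17 (SE, adjusted p = 1.11e-08) in untreated cells and 3.76 ± 0.17 (SE) in the BPA arm. Dppa3-ps, with which reads could be exchanged, was unlisted in EpiLCs and had 3.73, 4.79 and 4.36 CPM in untreated PGCLCs, a small level beside that of Dppa3.

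The RNA-binding members were scarcer. Nanos3 had 16, 14 and 28 counts in untreated EpiLCs, which is 0.717, 0.640 and 1.95 CPM, and 239, 128 and 206 counts in untreated PGCLCs, which is 7.62, 3.98 and 6.56 CPM. Every untreated PGCLC library was above every EpiLC library, with the widest relative spread of the 6 genes. Its log2 change was 2.50 ± 0.65 (SE, adjusted p = 0.00651) in untreated cells and 2.43 ± 0.68 (SE, adjusted p = 0.00913) in the BPA arm, where it was 1.91 without EpiLC BPA replicate 2 and 3.38 without EpiLC BPA replicate 3.

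Dnd1, the vertebrate partner of NANOS proteins in germ cell RNA control, was already measurable in EpiLCs, at 9.06, 7.41 and 10.6 CPM in untreated cells. Untreated PGCLCs had 20.9, 16.2 and 19.7 CPM, all above the EpiLC libraries. The log2 change was 1.08 ± 0.16 (SE, adjusted p = 0.000117), and 0.69 ± 0.16 (SE, adjusted p = 0.00275) in the BPA arm. Wdr55, which overlaps Dnd1, moved the other way between the stages, with a log2 change of -1.46 ± 0.15 (SE) in untreated cells.

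Without untreated EpiLC replicate 3, the same 5 genes still passed in both arms. The untreated log2 changes were then 4.10 for Prdm1, 5.51 for Tfap2c, 3.91 for Dppa3, 3.10 for Nanos3 and 1.15 for Dnd1. Nanos3 moved most, since that replicate held its highest EpiLC value.

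**Figure D1:**
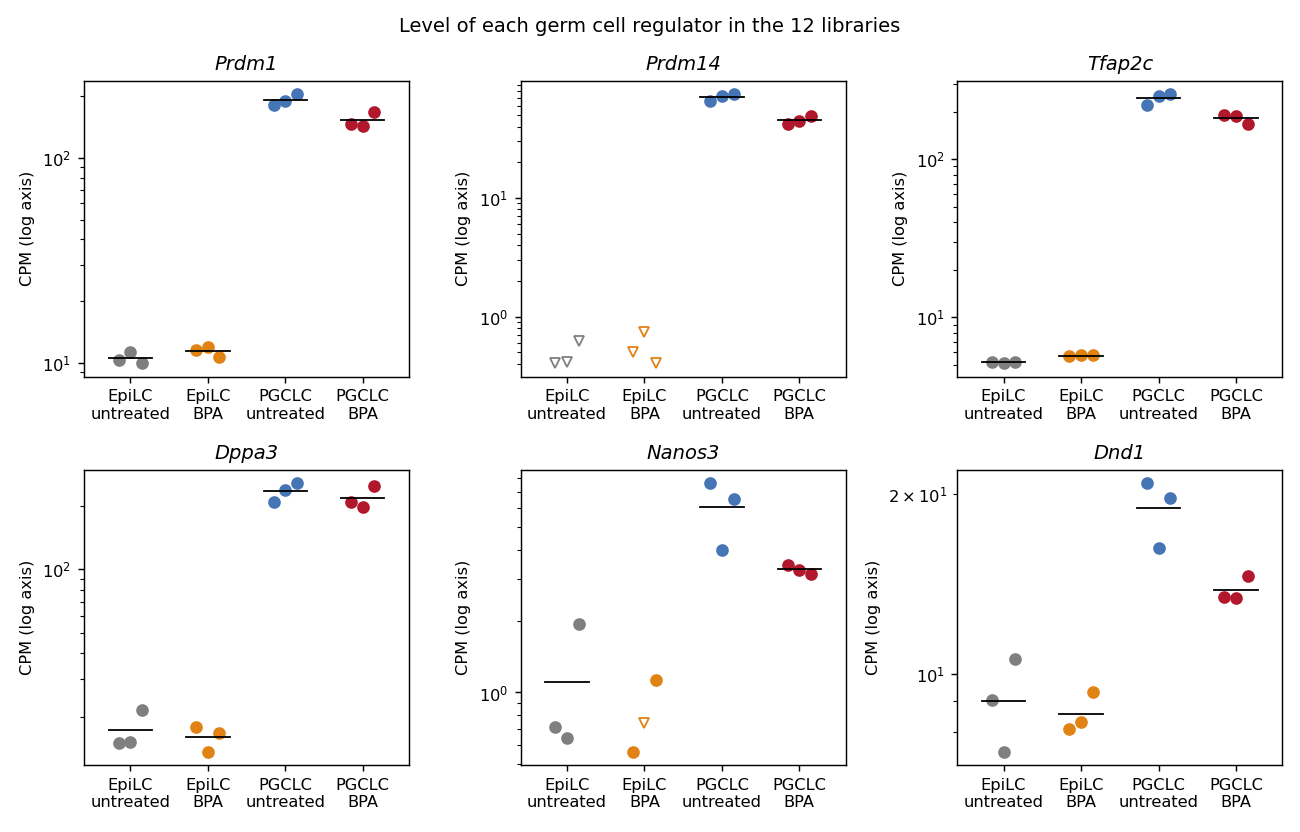
Level of each regulator in the 12 libraries, in CPM on a log axis that differs between panels. Filled circles are libraries, bars are means of groups whose 3 libraries all list the gene, and open triangles mark the ceiling of 9 counts where a library does not list the gene. All 6 genes are higher in PGCLCs, and Prdm14 is unlisted in all 6 EpiLC libraries.

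Levels of different genes can be set side by side only per length of exon. The length used holds every base in an exon of any annotated transcript, and which transcripts were expressed was not tested. For Dnd1 it covers 3 transcripts, of which 1 is coding, so a shorter expressed form would raise its level per kilobase. Per kilobase of exon, Dppa3 was highest in untreated PGCLCs at 262 ± 27.2 CPM per kb (SD, n = 3). Tfap2c followed at 66.0 ± 5.57 CPM per kb, Prdm1 at 34.3 ± 2.03 and Prdm14 at 27.6 ± 1.74 CPM per kb. Neighbours in this order down to Prdm14 did not overlap between their libraries. Dnd1, at 7.85 ± 1.00 CPM per kb, and Nanos3, at 6.55 ± 2.02 CPM per kb, did overlap (6.73 to 8.66 against 4.31 to 8.24 CPM per kb), so their order is within the spread.

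PGCLCs of the BPA arm kept this order of means, from 245 ± 30.7 CPM per kb for Dppa3 (SD, n = 3) through 49.2 for Tfap2c, 27.3 for Prdm1, 17.7 for Prdm14 and 5.73 for Dnd1 to 3.57 CPM per kb for Nanos3. Here no neighbours overlapped. In untreated EpiLCs the order was another: Dppa3 at 19.2 ± 4.15 CPM per kb (SD, n = 3) was followed by Dnd1 at 3.74, Prdm1 at 1.88, Tfap2c at 1.41 and Nanos3 at 1.19 CPM per kb, with Prdm14 unlisted. Nanos3 ranged from 0.693 to 2.11 CPM per kb there and overlapped Tfap2c and Prdm1. Dnd1 thus stood second in EpiLCs and the fifth in PGCLCs. In EpiLCs exposed to BPA the order was the same, with 18.0 CPM per kb for Dppa3 and 0.609 for Nanos3, the latter with 1 library at 0.

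**Figure D2:**
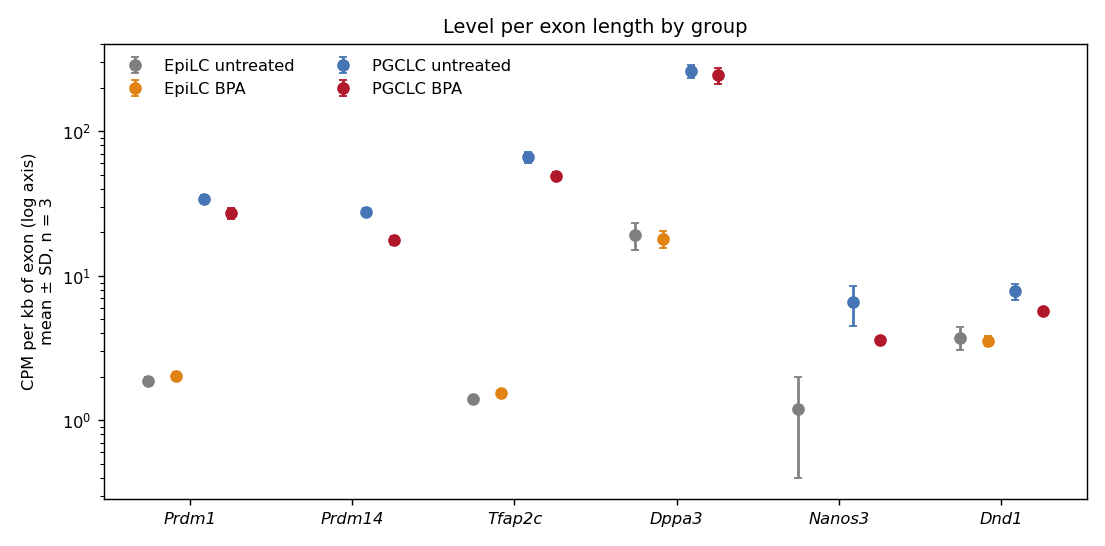
Mean level per kilobase of exon in each group, in CPM per kb on a log axis, with bars for the SD over 3 libraries. Prdm14 has no EpiLC point and Nanos3 none in EpiLCs exposed to BPA, because libraries there do not list the gene. Dppa3 is highest in all 4 groups.

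In EpiLCs, no regulator passed the test for BPA: 0 of the 5 tested genes did, and Prdm14 could not be tested. The same held for the whole table, where 0% of 15251 genes passed, with 118 genes at an unadjusted p under 0.05. DESeq2 called 16 genes and limma voom 0 genes, with 0 regulators in either. The regulators' adjusted p ranged from 0.943 to 0.959, and 0 of the 5 had an unadjusted p under 0.05.

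Under BPA, EpiLC Prdm1 was 11.6, 11.9 and 10.6 CPM, overlapping the untreated 9.95 to 11.2 CPM. Dppa3 was 17.7, 13.6 and 16.8 CPM and Dnd1 8.08, 8.31 and 9.33 CPM, both inside or overlapping the untreated range. Nanos3 was 0.561 CPM, unlisted and 1.13 CPM. These levels rest on 10 counts, at most 9 counts and 25 counts, so the Nanos3 comparison is imprecise at this depth.

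The log2 changes were 0.13 ± 0.12 for Prdm1, -0.07 ± 0.18 for Dppa3, -0.05 ± 0.16 for Dnd1 and -0.85 ± 1.03 for Nanos3 (SE). Leaving out untreated replicate 3 gave -0.21 for Nanos3, leaving out the BPA replicate that does not list it gave -0.33, and leaving out BPA replicate 3 gave -1.83. Tfap2c was the exception in overlap: its 5.67, 5.76 and 5.77 CPM under BPA all lay above the untreated 5.12 to 5.22 CPM. The gap was small, a log2 change of 0.16 ± 0.11 (SE, adjusted p = 0.943), and did not pass the test. The share of all genes whose EpiLC libraries separate in this way was not counted.

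In PGCLCs, Prdm14, Tfap2c and Prdm1, the transcription factors of the set, were lower in the BPA arm, by 1.25-fold to 1.55-fold. Dppa3 hardly differed, and Dnd1 and Nanos3 had lower levels in the BPA arm that did not pass the test. Thus 3 of 6 passed as lower and 0 as higher, where 5.72% of the 16752 genes tested passed as lower. For 5 of the 6, every BPA library lay below every untreated library, which held for 17.3% of all genes tested. The median log2 change of the 6 genes was -0.43 and that of all genes 0.01. Ribosomal protein genes held 6.15% to 6.54% of the counts in untreated PGCLCs and 4.80% to 4.96% in the BPA arm. With these genes left out, Prdm14, Tfap2c and Prdm1 still passed, at log2 changes of -0.63, -0.42 and -0.32.

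Prdm14 fell from 65.9, 71.9 and 74.6 CPM to 42.1, 45.0 and 49.0 CPM. All 3 BPA libraries were well below all 3 untreated ones. The log2 change was -0.63 ± 0.09 (SE, adjusted p = 0.00545). It passed with each of the 6 libraries left out in turn, with log2 changes of -0.69 to -0.58.

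Tfap2c fell from 219, 253 and 257 CPM to 190, 187 and 166 CPM, with replicate 3 lowest in the BPA arm. The log2 change of -0.41 ± 0.08 (SE, adjusted p = 0.0184) missed the threshold when untreated replicate 2 or 3, or BPA replicate 1 or 2, was left out (adjusted p = 0.0560 to 0.0674). Prdm1 fell from 181, 190 and 204 CPM to 146, 143 and 168 CPM, and here BPA replicate 3 was the highest of its group. Its log2 change was -0.32 ± 0.08 (SE, adjusted p = 0.0334). That call was lost without any single library other than BPA replicate 3 (adjusted p = 0.0602 to 0.155).

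Dppa3 was 209, 197 and 249 CPM in the BPA arm against 208, 238 and 256 CPM, so the groups overlapped. Its log2 change was -0.09 ± 0.10 (SE, adjusted p = 0.670). Prdm1 and Dppa3 are both genes of the sort, which both arms passed. The pseudogene Dppa3-ps had 1.82, 0.831 and 2.23 CPM in the BPA arm, below its untreated level in all libraries, with a log2 change of -1.38 ± 0.39 (SE, adjusted p = 0.0532). The deposited counts of the BPA arm of the PGCLCs also carry a summary row for reads that align to several places (163810 to 212070 reads), which the untreated PGCLC counts lack and 1 other library, EpiLC BPA replicate 2, has with 1448753 reads. The part of this difference in the Dppa3 values was not tested.

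Dnd1 had 13.5, 13.4 and 14.6 CPM in the BPA arm, all below the untreated 16.2 to 20.9 CPM. The log2 change was -0.44 ± 0.14 (SE, adjusted p = 0.0697). Wdr55, its neighbour on the other strand, gave -0.03 ± 0.14 (SE). Nanos3 had 3.45, 3.29 and 3.17 CPM against 7.62, 3.98 and 6.56 CPM, without overlap but with the untreated replicates far apart. Its log2 change was -0.86 ± 0.28 (SE, adjusted p = 0.0795). Without untreated replicate 2, the lowest of its group, Nanos3 passed, at -1.10 ± 0.19 (SE, adjusted p = 0.0358).

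**Figure D3:**
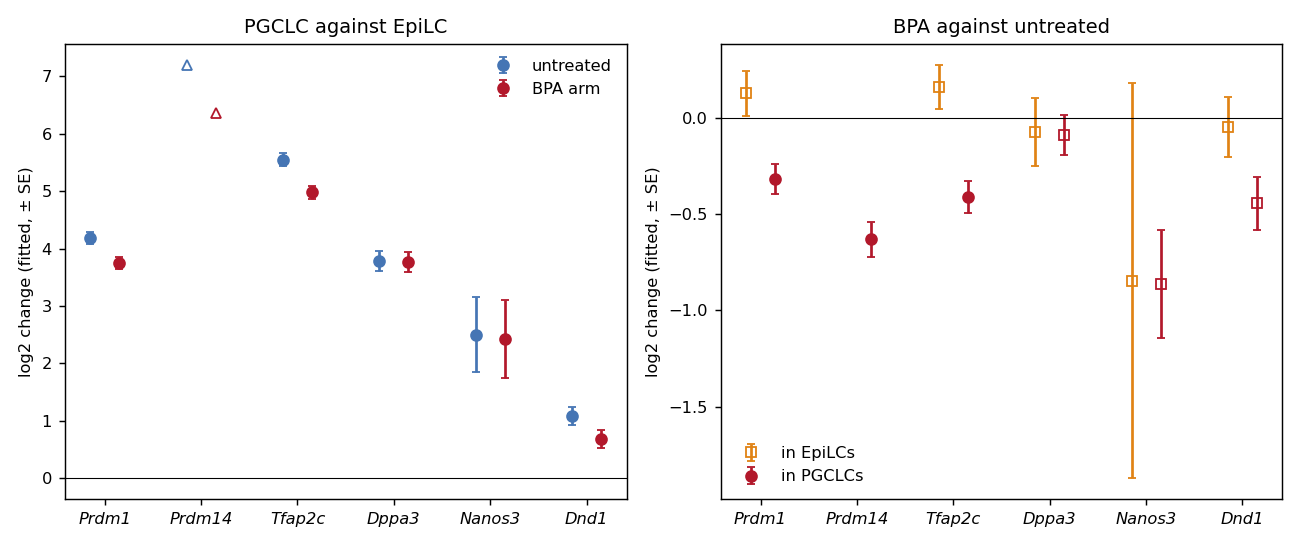
Fitted log2 change of each regulator with bars for the SE, left for PGCLCs against EpiLCs and right for BPA against untreated cells. Filled circles passed the test at an adjusted p under 0.05, open squares did not, and open triangles are the lower bounds of Prdm14, log2 changes of at least 7.20 and 6.36. In PGCLCs, Prdm14, Tfap2c and Prdm1 lie below 0 and pass, and no gene passes in EpiLCs.

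Without BPA replicate 3 of the PGCLCs, the same 3 genes passed, with log2 changes of -0.68 for Prdm14, -0.35 for Tfap2c and -0.38 for Prdm1. Dppa3 was then -0.19 ± 0.09 (SE, adjusted p = 0.203). Only 1 of the 6 genes, Prdm14, passed without untreated replicate 3, BPA replicate 1 or BPA replicate 2.

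The counts of the other 5 genes relative to Dppa3 within a library do not depend on the scaling between libraries. The log2 ratio of Prdm14 was -1.72 ± 0.06 in untreated PGCLCs and -2.26 ± 0.11 in the BPA arm (SD, n = 3), a difference of -0.54. For Prdm1 the ratio went from -0.29 ± 0.07 to -0.52 ± 0.06, and for Tfap2c from 0.06 ± 0.05 to -0.27 ± 0.28 (SD, n = 3). All 3 untreated libraries were above all 3 BPA libraries for each of the 5 genes, but the closest libraries stood at -5.900 and -5.905 for Nanos3 and at -3.872 and -3.880 for Dnd1. The 5 ratios share the same Dppa3 counts, so they are not separate observations. The share of all genes whose ratio to Dppa3 separates was not counted. The Tfap2c ratio in the BPA arm was uneven, at -0.14 and -0.08 in replicates 1 and 2 and -0.58 in replicate 3, and without replicate 3 the difference was -0.16 in place of -0.32. The differences were -0.35 for Dnd1 and -0.72 for Nanos3. Without untreated replicate 1 they were -0.19 and -0.45, and without untreated replicate 2 -0.47 and -1.01. Each of the 5 two-sided exact permutation tests gave p = 0.1, adjusted p = 0.1, which is the smallest that 3 against 3 libraries allow.

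**Figure D4:**
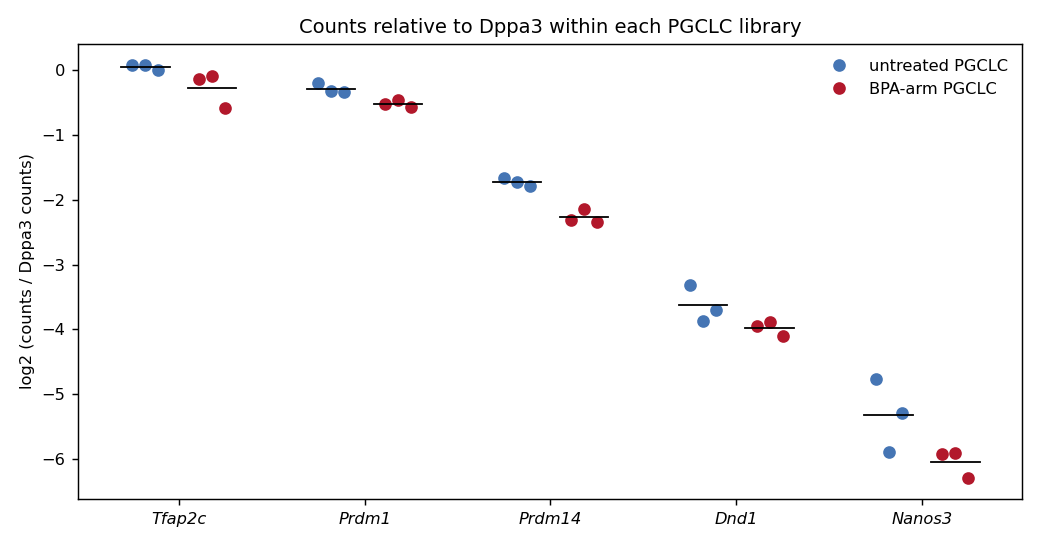
Log2 ratio of each gene's counts to those of Dppa3 in each PGCLC library, with bars for group means. For each of the 5 genes the 3 libraries of the BPA arm lie below the 3 untreated libraries, and for Tfap2c replicate 3 at -0.58 lies apart. The ratios share the same Dppa3 counts, and the share of all genes that separate was not counted.

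Whether the BPA arm differed from untreated cells to another extent at each stage was tested by the interaction. It is the log2 BPA change in PGCLCs minus that in EpiLCs. As library batch cannot be told apart from BPA within PGCLCs, the interaction carries the same limit. With the edgeR quasi-likelihood test, 0 of the 5 regulators with a value passed, and 2 of them, Prdm1 and Tfap2c, had an unadjusted p under 0.05. Over all 17607 genes, 2448 had an unadjusted p under 0.05 and 0.312% passed as lower. The difference was -0.57 ± 0.14 for Tfap2c (SE, adjusted p = 0.0800), -0.44 ± 0.14 for Prdm1 (SE, adjusted p = 0.178) and -0.39 ± 0.22 for Dnd1 (SE, adjusted p = 0.480). It was -0.01 ± 0.23 for Dppa3 and -0.07 ± 0.97 for Nanos3 (SE). Tfap2c was the gene whose libraries separated in opposite directions, above untreated in EpiLCs by a small gap and below it in PGCLCs. How many other genes did so was not counted. DESeq2 called Tfap2c (adjusted p = 0.0320), as did edgeR without untreated PGCLC replicate 1 (adjusted p = 0.0468). Limma voom called 0 regulators.

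Markers of other cell types moved with the BPA arm. The summed level of 13 visceral and definitive endoderm markers was 764 to 1191 CPM in untreated PGCLCs and 6537, 6561 and 3006 CPM in replicates 1 to 3 of the BPA arm. Of the 13, 7 rose and 0 fell, led by Ttr, Afp and Apoa1, which encode secreted proteins of visceral endoderm (log2 changes of 5.40 ± 0.26, 6.01 ± 0.35 and 5.35 ± 0.39, SE). Over all 16752 genes tested, 1362 passed as higher and 959 as lower. None of the 13 was unlisted throughout the untreated PGCLCs. The summed level of the 6 regulators was 703 to 817 CPM in untreated PGCLCs and 589 to 650 CPM in the BPA arm. Prdm1 is also known from visceral endoderm and Tfap2c from trophoblast, and the part of other cells in the regulators' values was not tested.

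Other marker lists moved less. The summed trophoblast markers were 154 to 193 CPM in untreated PGCLCs and 135 to 164 CPM in the BPA arm, with 1 of 7 (Cdx2) higher and 1 (Krt7) lower. Mesoderm markers summed to 117 to 151 CPM and 129 to 142 CPM, with 1 (Mixl1) higher and 1 (Kdr) lower of 6 tested, while Mesp1 and Msgn1 were unlisted in all PGCLC libraries. Endothelium and blood markers summed to 206 to 230 CPM and 208 to 247 CPM, with 1 (Hbb-bh1) higher and 1 (Tek) lower of 7 tested. Hbb-bh1 was unlisted in all untreated PGCLC libraries and passed the filter only through the BPA arm. Naive pluripotency markers summed to 1719 to 1784 CPM and 1403 to 1555 CPM, with 0 of 7 higher and 3 lower (Esrrb, Tfcp2l1 and Zfp42). EpiLC markers summed to 388 to 416 CPM and 426 to 483 CPM, with 2 of 7 higher (Dnmt3a and Lef1) and 0 lower. Endoderm markers in EpiLCs summed to 19.5 to 23.8 CPM in untreated and 19.9 to 22.0 CPM in BPA cells.

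**Figure D5:**
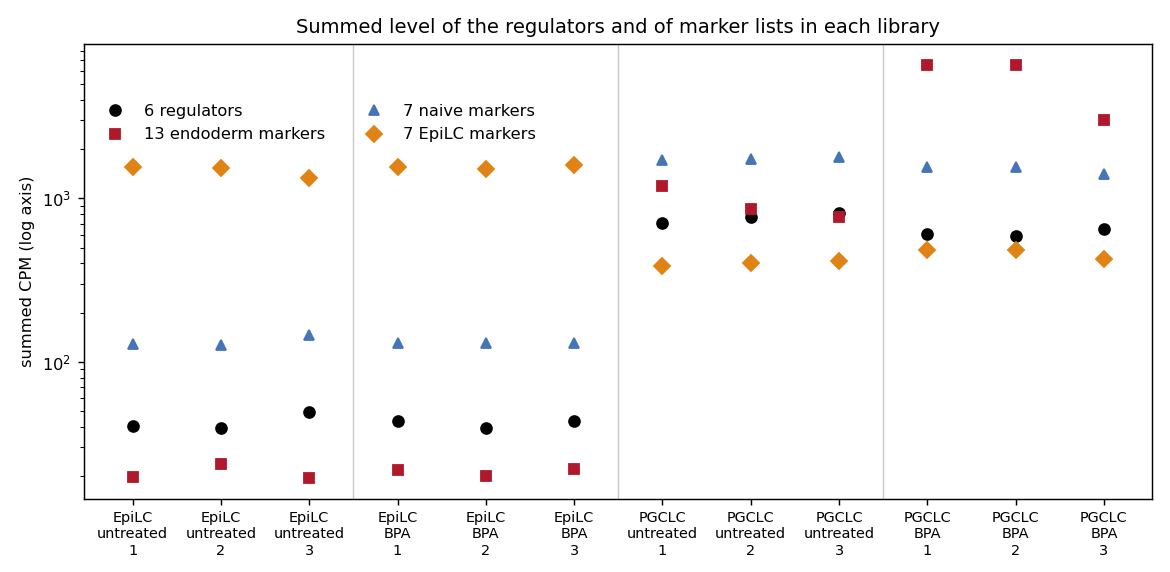
Summed level of the 6 regulators and of 3 marker lists in each of the 12 libraries, in CPM on a log axis. In the BPA arm of the PGCLCs the endoderm sum stands at 3006 to 6561 CPM, above all untreated PGCLC libraries, and the sum of the regulators at 589 to 650 CPM, below them.

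The inputs of the programme include the signals and competence factors upstream of the regulators. In untreated cells, 8 of 14 were higher and 2 lower in PGCLCs, with a median log2 change of 0.61 against 0.07 over all genes. Bmp4, the ligand that induces germ cells, rose by a log2 change of 3.56 ± 0.25, and Lin28a, the let-7 inhibitor needed for germ cell formation, fell by 1.15 (SE 0.09). Cells of the BPA arm gave 9 higher and 2 lower. Bmp2, counted as higher in both arms, was unlisted in all EpiLC libraries and passed the filter only through PGCLCs. BPA against untreated PGCLCs gave 1 higher and 1 lower of 13 tested: Bmp2 rose by 2.60 ± 0.57 (SE, adjusted p = 0.0229) and Bmp4 was at -0.71 ± 0.19 (SE, adjusted p = 0.0459). Of all 16752 genes tested there, 1362 passed as higher and 959 as lower, a share near that of this list. Bmp2 was 1.66, 2.40 and 2.23 CPM in untreated PGCLCs and 15.9, 18.5 and 3.42 CPM in the BPA arm, so it was lowest in BPA replicate 3, as the endoderm markers were.

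Partners of the regulators are proteins that bind or act with them, such as Cbfa2t2, the corepressor of PRDM14, and Prmt5, the arginine methyltransferase found with BLIMP1. Of 8, 4 were higher and 4 lower in untreated PGCLCs than in EpiLCs, with a median log2 change of 0.04. Over all 17607 genes tested, 5347 were higher and 4438 lower. Cbfa2t2 rose by 1.68 ± 0.15, while Prmt5 was at -0.79 ± 0.08 and its cofactor Wdr77 at -1.50 ± 0.13 (log2, SE). In the BPA arm 3 were higher and 4 lower, with Wdr77, Prmt5 and Uhrf1 the leading falls. Under BPA in PGCLCs, 1 of 8 passed: Cnot1, a scaffold of the deadenylase complex that NANOS proteins recruit, was higher by 0.21 ± 0.04 (SE, adjusted p = 0.0193). Of all 16752 genes tested there, 1362 passed as higher and 959 as lower, so 1 of 8 is near the share of all genes.

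Among the 12 other early germ cell genes, 11 were higher and 1 lower in PGCLCs than in EpiLCs in either arm, with a median log2 change of 3.48 in untreated cells. Nanog, Sox2 and Sall4, pluripotency factors that early germ cells express, rose by 4.78 ± 0.15, 3.78 ± 0.12 and 2.69 ± 0.10 (log2, SE). Under BPA in PGCLCs, 7 of the 12 fell and 0 rose, with a median of -0.29 against 0.01 over all genes. The leading falls were Rhox9 and Rhox6, homeobox genes of the X chromosome expressed in germ cells, at -1.15 ± 0.10 and -0.998 ± 0.12, and Pou5f1, which encodes OCT4, at -0.59 ± 0.06 (log2, SE). Rhox9 went from 131, 142 and 147 CPM to 62.2, 54.8 and 70.6 CPM. Rhox6 and Rhox9 are related copies, and how reads were split between them was not tested. Kit, the receptor of migrating germ cells, was at 0.06 ± 0.07 (SE, adjusted p = 0.682).

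Of 9 tested later germ cell genes, 2 were higher and 3 lower in untreated PGCLCs than in EpiLCs, and 2 higher and 4 lower in the BPA arm. As higher, 5347 of all 17607 genes tested passed in untreated cells and 5716 in the BPA arm. Dazl, an RNA-binding protein that licenses germ cells, rose by 2.98 ± 0.19, while Mael and Stra8, of piRNA processing and meiotic entry, were at -2.08 ± 0.18 and -2.37 ± 0.23 (log2, SE). BPA in PGCLCs gave 1 call, Tdrd5 of the piRNA machinery, higher by 0.84 ± 0.15 (SE, adjusted p = 0.0129). That is 1 of 9 tested, where 1362 of all 16752 genes passed as higher and 959 as lower, so it does not exceed the share of all genes. Of 8 genes known to be repressed as germ cells are specified, 6 were lower and 1 higher in PGCLCs in both arms. Over all 17607 genes tested, 4438 were lower in untreated cells and 4407 in the BPA arm. Dnmt3a and Dnmt3b, the de novo DNA methyltransferases that PRDM14 restrains, were at -2.97 ± 0.12 and -1.73 ± 0.12, and Myc at -2.64 ± 0.14 (log2, SE). In the BPA arm of the PGCLCs, Dnmt3a was higher by 0.53 ± 0.11 (SE, adjusted p = 0.0191), at 120, 125 and 125 CPM against 71.6, 94.96 and 92.7 CPM, and it was the only 1 of the 8 to pass.

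The families of the regulators hold 18 paralogs. Of the 13 tested between the stages, 4 were higher and 1 lower in PGCLCs in each arm, a share of higher calls near the 30.4% and 32.5% of all genes. Prdm6, 1 of the 4, was unlisted in all EpiLC libraries and passed the filter only through PGCLCs. Prdm16 and Mecom, PR-domain genes of stem and progenitor cells, rose by 2.57 ± 0.16 and 2.50 ± 0.37 (log2, SE) in untreated cells, and Tfap2a, the AP-2 alpha gene, from 0.732 CPM in 1 untreated EpiLC library and unlisted in the other 2 to 12.02, 18.0 and 14.97 CPM. Under BPA in PGCLCs, 2 of 12 tested paralogs were higher and 0 lower, where 1362 of all 16752 genes tested passed as higher and 959 as lower. Prdm6 was 1.47, 3.14 and 2.87 CPM in untreated PGCLCs and 18.4, 16.4 and 5.01 CPM in the BPA arm, a log2 change of 2.42 ± 0.51 (SE, adjusted p = 0.0199), and Prdm2 was higher by 0.27 ± 0.06 (SE, adjusted p = 0.0282). Tfap2a was at 0.25 ± 0.29 (SE, adjusted p = 0.656) and Nanos1 at -0.70 ± 0.20 (SE, adjusted p = 0.0553). In EpiLCs, BPA gave 0 calls in all 6 of these lists, with an unadjusted p under 0.05 for 1 gene, Bmp8b. The interaction gave 0 calls in the 6 lists too, with 8 genes at an unadjusted p under 0.05.

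To see which genes ran closest to each regulator, the centred log2 CPM profile over the 12 libraries was compared with 14718 protein-coding genes by the root mean square (RMS) difference, a description that rests mostly on the stage difference. Nearest to Prdm1 were Plcd1, Mreg and Rab27a, at RMS differences of 0.14, 0.16 and 0.17. Plcd1 went from 8.06 ± 0.398 CPM in untreated EpiLCs to 129 ± 8.88 CPM in untreated PGCLCs (SD, n = 3). Esrrb and Tmod1 were among the 3 genes nearest to Tfap2c, at 0.16 each. Tmod1 was unlisted in all EpiLC libraries, so its distance depends on the 0 set there and on the prior count. Esrrb, an orphan nuclear receptor of naive pluripotency, shared with Tfap2c the lower level in the BPA arm, at 418 ± 17.3 CPM against 553 ± 18.1 CPM (SD, n = 3).

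Dppa3 lay nearest to Porcn, Dlgap3 and Plcd1, at 0.16, 0.19 and 0.20, and Dnd1 to Acot9, Actb and Ostf1, at 0.10, 0.11 and 0.15. Prdm14 had no near neighbour: Slc15a1, Unc5c and Dkk1, each unlisted in all EpiLC libraries, stood at 0.52, 0.80 and 0.83. The nearest of Nanos3 were Rapgef3, Dlgap1 and Rassf10, at 0.44, 0.47 and 0.48. Among the 6 regulators the closest pair was Prdm1 and Dppa3, the genes of the sort, at 0.23, and the farthest was Prdm14 and Dnd1, at 4.30. The EpiLC values of Prdm14 were set to 0, so every distance to Prdm14 depends on the prior count and is no measured distance. Within the 6 PGCLC libraries alone, the nearest genes were others for each regulator, such as Noct for Prdm1 and Rrp9 for Tfap2c.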

How the data were processed

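Reads were processed with HTSeq, STAR, FastQC and bcl2fastq 2.19.1.403 on mm10, per the submitters' processing notes, which give no order or role. The deposited files hold counts per Ensembl gene for 12 libraries, without genes under 10 counts. Unlisted genes were set to 0. The authors' CPM, deposited in 1 table per stage and normalised separately, are these counts over a library constant and served only in an alternative. GENCODE M21 held 21695 of the 21728 identifiers. Ambiguous reads (4.56% to 6.07%) and those outside features (4.42% to 10.7%) stayed out of library sizes. Mitochondrially encoded and Y-linked genes were not analysed here.

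Groups came from the sample titles. After filterByExpr and TMM scaling, edgeR's quasi-likelihood test (R 4.3.3, edgeR 4.0.16) was run two-sided. Each adjusted p in the text is from it with Benjamini-Hochberg over all genes tested unless another tool is named, at a threshold of 0.05, with n = 3 libraries per group. BPA was tested within each stage, and the stages and the interaction in 1 fit of 12 libraries. CPM in the text are on 1 TMM scale over the 12 libraries, SE is from the F statistic, and log2 CPM profiles used a prior count of 2. The scripts were tested on simulated data.

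The regulators, gene lists, motifs and tests were chosen with earlier results of these data known. Named were the 6 regulators, their 3 nearest genes by profile (some are not reported here), and up to 3 called genes with the smallest p per list and comparison. Outside this rule, Otx2, Kit, Nanos1, Bmp8b, Dppa3-ps and Wdr55 and genes named beside a count were picked after their values were seen. Alternatives were DESeq2 1.42.0, limma 3.58.1 voom, limma-trend on the deposited CPM with a pseudocount of 1, a replicate block, RLE factors or library size alone, no filter or 1 CPM in 3 libraries, other sets of libraries in the fit, unlisted genes as 9, ribosomal protein genes left out, and each library left out in turn.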

Additional observations from a re-analysis of the deposited data

How the results depend on the processing

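Of 684 values under the alternatives, 646 kept their direction and their side of the threshold, among them all 154 of each stage comparison. Regulators lower under BPA in PGCLCs numbered 1 to 3 with each library left out, and regulators called in the interaction 0 to 1. DESeq2 called 1 in the interaction. Prdm1 in PGCLCs also lost its call with library size alone (adjusted p = 0.0535) and in 1 fit of 12 libraries (0.0513). Values near 0 changed sign: the Dppa3 interaction was 0.029 with unlisted genes as 9 and -0.17 to 0.077 with libraries left out, and the Nanos3 interaction 0.011 with DESeq2, 0.52 with voom, 0.17 with the replicate block and -0.70 to 0.89 with libraries left out. In EpiLCs, leaving out libraries gave Dppa3 -0.15 to 0.10, Dnd1 -0.17 to 0.062 and Nanos3 -1.83 to -0.21. The causes were not tested. Over all genes, interaction calls were 232, 898 with DESeq2, 519 with unlisted genes as 9, 141 with voom, 152 with the block and 83 to 763 with libraries left out. BPA calls in PGCLCs were 2321, and 668 to 3201 with libraries left out. In EpiLCs DESeq2 gave 16. Without a filter the median stage change of all genes was 0.20 in untreated cells. Replicate numbers did not pair the libraries (correlations of -0.02 to 0.06), and the replicate block kept the numbers of regulators called in the 5 comparisons (6, 6, 0, 0 and 3, Prdm14 included). The interaction could not be fitted with only 2 groups, and the 1 CPM filter left 4 regulators to test in EpiLCs. Depth limits Nanos3 and Prdm14 in EpiLCs.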
